A study of Mus musculus with 12 samples.

Results

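The 10 genes described here, Fos, Fosb, Jun, Junb, Atf3, Egr1, Egr2, Egr3, Nr4a1 and Klf6, encode transcription factors of the immediate-early response. They were taken by name, as the rows of the count table whose Ensembl identifier carries one of these symbols, and all 10 were found among the 37991 genes of the table. Their RNA was measured by RNA-seq in 12 thymic lymphomas, tumours of developing T cells, from C57BL/6 mice. Of these, 8 are labelled responder and 4 non-responder to reactivation of wild-type p53. All 12 mice had the genotype p53neo/R172H;R26CreER/GNZ, which joins a p53 allele that Cre can switch back to wild type with a mutant p53 allele, the tamoxifen-activated recombinase CreER at the R26 locus and the allele named GNZ. All had received tamoxifen every week, so both groups carry the mutant allele and the treatment, and no untreated tumour is among the samples used here. The tumours were taken after a last magnetic resonance scan had shown growth or shrinkage. The R26 locus is active in most cell types, so recombination need not be limited to the lymphoma cells.

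Immediate-early genes are switched on within minutes of a stimulus from factors already present in the cell, with no need for new protein. In thymocytes and T cells the usual stimulus is the T-cell receptor. It acts through the kinase ERK on the serum response factor SRF and its ETS partners, through CREB, and through calcium and NFAT. Fos and Jun family proteins pair through leucine zippers to form AP-1. EGR1, EGR2 and EGR3 are zinc-finger factors, and NR4A1 is an orphan nuclear receptor that is widely used as a reporter of T-cell receptor signal strength. KLF6 is a zinc-finger factor of the Krüppel-like family, and ATF3 is a stress-induced bZIP factor. The same genes respond to growth factors, heat, tissue handling and lack of oxygen in almost every cell type.

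The upstream sequences of 4 of these genes are shown because some of the sites through which such stimuli act can lie close to the start. RefSeq windows (GRCm38.p6) were at hand for 8 of the 10 genes, 12 windows in all, of which 5 overlapping or neighbouring ones belong to Egr2; none was at hand for Egr1 and Egr3. The 250 bases before each start were searched on both strands, overlapping matches included, for the CRE half-site TGACG, the full CRE TGACGTCA (which contains the half-site), the AP-1 site TGANTCA, the EGR site GCGNGGGCG, the TATA box TATAAA and the CArG box, the site of SRF. Each line below gives the 150 bases before the start, 5′ to 3′ on the gene's strand, with matched letters in capitals.

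Fos, chr12:85473740-85473889, plus strand: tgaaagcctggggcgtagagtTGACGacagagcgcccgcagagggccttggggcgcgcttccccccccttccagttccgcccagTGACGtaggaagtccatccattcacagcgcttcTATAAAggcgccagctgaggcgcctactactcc

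Junb, chr8:84978749-84978898, minus strand: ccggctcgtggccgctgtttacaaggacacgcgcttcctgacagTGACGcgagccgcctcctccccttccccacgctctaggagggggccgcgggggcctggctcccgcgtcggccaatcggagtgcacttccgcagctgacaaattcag

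Egr2, chr10:67537719-67537868, plus strand: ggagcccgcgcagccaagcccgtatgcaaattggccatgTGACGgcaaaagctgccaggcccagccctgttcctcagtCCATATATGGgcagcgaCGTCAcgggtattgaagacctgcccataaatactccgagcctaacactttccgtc

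Nr4a1, chr15:101266696-101266845, plus strand: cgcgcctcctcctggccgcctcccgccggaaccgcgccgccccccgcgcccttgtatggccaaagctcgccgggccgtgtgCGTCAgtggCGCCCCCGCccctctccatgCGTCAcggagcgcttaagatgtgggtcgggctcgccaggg

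The Egr2 window had a CArG box whose first base lay 72 bases before the start, between CRE half-sites at 111 and 55 bases. Nr4a1 had 4 CRE half-sites, at 233, 213, 69 and 40 bases, and an EGR site at 60 bases. Fos had half-sites at 129 and 66 bases and a TATA box at 33 bases, and Junb had 1 half-site, at 106 bases. Over all 12 windows, 8 held a CRE half-site and 4, all of Egr2, a CArG box. Among 32851 windows of all genes the shares were 17.8% and 1.47%. The Egr2 windows with starts at 67537869, 67537870 and 67537930 overlap and hold the same CArG box and half-sites. The counts of windows therefore include the same stretch more than once. EGR sites were in 2 of the 12 windows (4.7% of all), in Fosb and Nr4a1, while no window held a full CRE (1.55% of all) or an AP-1 site (6.75% of all). The searched 250 bases of Jun and Klf6 held none of these letters. Sites further upstream than 250 bases, or with letters that differ from these patterns, were not searched for. The absence of a match therefore does not show that a gene lacks such a site. A match is a stretch of letters, and binding was not measured.

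Libraries held 20796860 to 30265753 counts, with the 4 non-responders at 20796860 to 24393524 and the 8 responders at 23808086 to 30265753. All 11 T-lineage markers, among them Cd3e, Lck and Trbc1, were present, with a summed level of 965 to 4035 CPM (counts scaled to a common library total) in responders and 3122 to 4426 CPM in non-responders. Of 104 tested genes of 11 other cell types that a tumour piece can hold, 95 had a lower mean in non-responders and 77 did so with an unadjusted p under 0.05 (edgeR), and 0 passed after adjustment. The mean log2 CPM over these 11 lists ran from 2.41 to 5.20 in responders and from 1.80 to 2.19 in non-responders. In whole tumours, fewer cells of a type and less RNA per cell cannot be told apart.

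Per base of exon, Junb was the most abundant of the 10 genes and Fosb the least. In RPKM (CPM per kilobase of exon), the mean level over 12 tumours was 17.2 ± 5.30 for Junb (SD, n = 12) and 14.5 ± 7.59 for Klf6. Jun followed at 5.46 ± 2.68, Nr4a1 at 4.47 ± 2.42, Atf3 at 3.25 ± 2.10, Fos at 2.29 ± 1.41 and Egr1 at 2.02 ± 0.821 RPKM. The lowest were Egr2 at 1.69 ± 1.17, Egr3 at 0.84 ± 1.21 and Fosb at 0.092 ± 0.0401 RPKM. The order between neighbours held in 10 of 12 tumours for Junb over Klf6, in 11 for Klf6 over Jun and in 11 for Egr2 over Egr3. It held in 6 of 12 for Jun over Nr4a1 and in 8 or 9 for each of the other 5 pairs, so neighbours in the middle of the order were not separated beyond their spread.

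**Figure D1:**
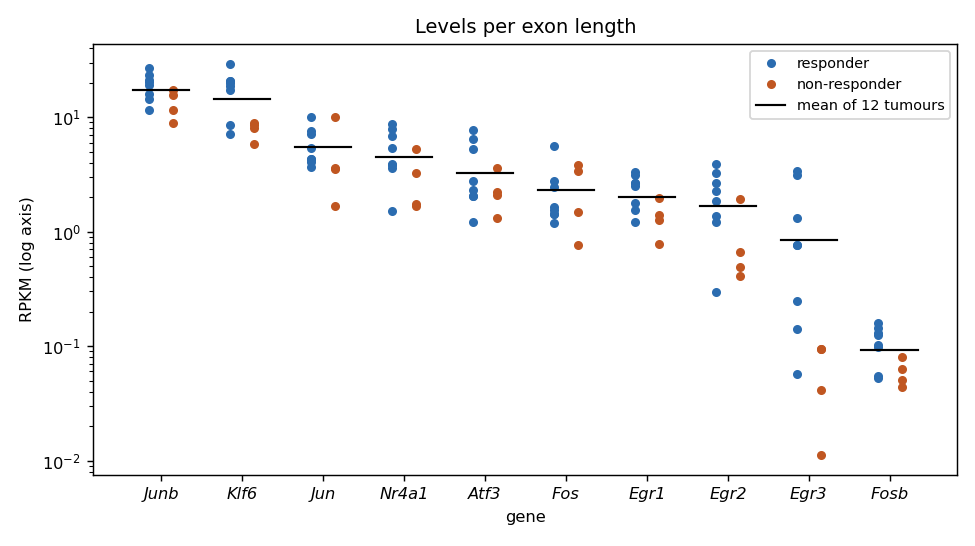
Level per exon length (RPKM, log axis) of the 10 immediate-early genes in 8 responding (blue) and 4 non-responding (orange) tumours, with a line at the mean of the 12. Junb and Klf6 lie highest at means of 17.2 and 14.5 RPKM, and Egr3 spreads the widest.

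Among the EGR genes, Egr3 showed the widest range between tumours and the largest difference between groups. Egr3 lies on chromosome 14 from 70077203 to 70082614 (GRCm38). Its level was 0.253 CPM in the lowest responder, 3.39 CPM at the median and 15 CPM in the highest, and 0.413, 0.049, 0.414 and 0.182 CPM in non-responders 1 to 4. Responders 4 to 8 stood at 3.38 to 15 CPM, whereas responders 1, 2 and 3 stood at 1.09, 0.617 and 0.253 CPM, so the groups overlapped through responder 3 alone. The mean was 5.42 ± 5.85 CPM over the 8 responders and 0.264 ± 0.180 CPM over the 4 non-responders (± SD), a 20.5-fold ratio of means. The log2 fold change, given throughout as non-responder minus responder, came to -4.33 (SE 1.17), and its edgeR adjusted p of 0.117 missed the threshold of 0.05. Behind these values lie 6 to 407 counts per responder and 1 to 9 counts per non-responder, so the low end carries large counting error.

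Egr2, a factor of the same family, had 1.01 CPM in the lowest responder, a median of 7.01 and 13.3 CPM in the highest. Non-responders 1 to 4 were at 6.52, 1.67, 1.38 and 2.27 CPM. The lowest value of all 12 belonged to responder 3, and all 4 non-responders lay within the range of the responders. For Egr2 the group difference was -1.27 on the log2 scale (SE 0.62, edgeR adjusted p = 0.23), and it ranged from -2.0 without non-responder 1 to -1.01 without non-responder 3. Egr2 lies on chromosome 10 from 67535475 to 67542188.

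Egr1, the family member that serum and receptor signals induce in most tissues, varied less. Responders ran from 5.4 CPM through a median of 11.5 to 14.9 CPM, and non-responders 1 to 4 were at 8.81, 6.23, 3.50 and 5.72 CPM. All 4 non-responders lay below the responder median, and 5 responders lay above all non-responders. For Egr1 the group difference was -0.80 on the log2 scale (SE 0.33, edgeR adjusted p = 0.176). It lies on chromosome 18 from 34859823 to 34864984.

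**Figure D2:**
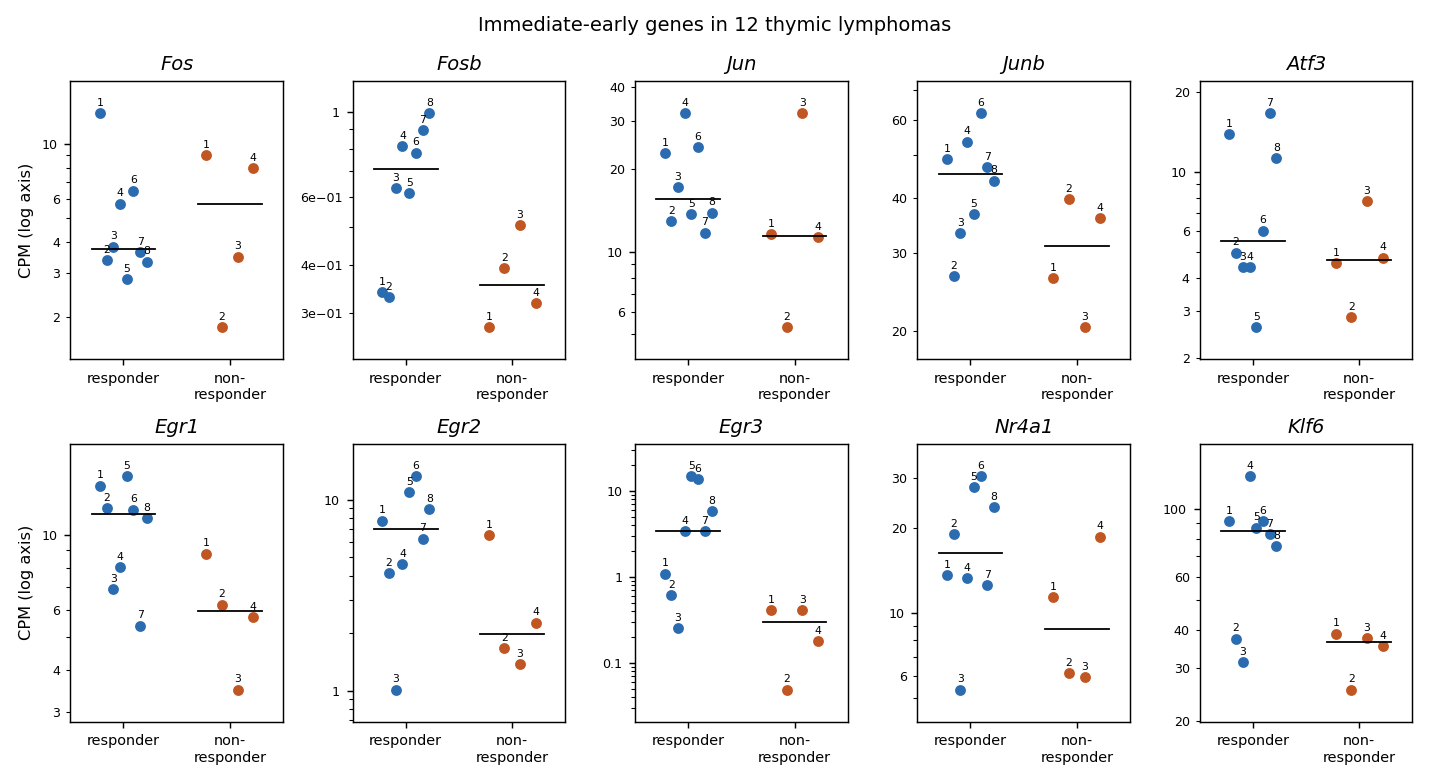
CPM of each immediate-early gene (log axis, own scale per panel) in 8 responding and 4 non-responding tumours; digits name the tumours within each group and lines mark group medians. Egr3 and Klf6 are high in responders 4 to 8 and low in all 4 non-responders. In responder 1 Klf6 is high too (91.5 CPM), whereas Egr3 is at 1.09 CPM. The Fos values of the groups overlap widely (2.82 to 13.3 and 1.81 to 8.99 CPM).

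Nr4a1, on chromosome 15 from 101254269 to 101274795, ran from 5.36 CPM through a median of 16.3 to 30.7 CPM in responders. Non-responders 1 to 4 were at 11.4, 6.13, 5.94 and 18.7 CPM. Responders 5, 6 and 8 were the highest at 27.9, 30.7 and 23.8 CPM, and responder 3 was the lowest of all tumours. For Nr4a1 the log2 fold change was -0.80 (SE 0.45, edgeR adjusted p = 0.298), and it ranged from -1.22 without non-responder 4 to -0.57 without non-responder 3.

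Klf6 had the second-lowest p among the 10 genes and the highest CPM. It lies on chromosome 13 from 5861482 to 5870394. Responders ran from 31.3 CPM through a median of 85.1 to 129.1 CPM, and non-responders 1 to 4 were at 38.8, 25.4, 37.6 and 35.3 CPM. Responders 1 and 4 to 8 were all at 75.6 CPM or more, whereas responders 2 and 3, at 37.4 and 31.3 CPM, lay among the non-responders. The mean was 78.3 ± 31.4 CPM over the 8 responders and 34.3 ± 6.12 CPM over the 4 non-responders (± SD), a ratio of 2.29. The log2 fold change was -1.19 (SE 0.34, edgeR adjusted p = 0.117).

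In the AP-1 group, the Fos genes gave unlike pictures. Fos encodes the archetypal partner of Jun, and lies on chromosome 12 from 85473890 to 85477273. It stood at 2.82 CPM in the lowest responder, 3.74 at the median and 13.3 CPM in the highest, against 8.99, 1.81, 3.50 and 7.94 CPM in non-responders 1 to 4. The highest value was in responder 1 and the next 2 were in non-responders 1 and 4. For Fos the group difference was 0.07 on the log2 scale (SE 0.51, edgeR adjusted p = 0.95), and its sign turned when any 1 of 6 tumours was left out (range -0.26 to 0.43) and under upper-quartile scaling (-0.02). Fosb, which can take the place of Fos in AP-1 and lies on chromosome 7 from 19302696 to 19310051, was low, with 6 to 25 counts per library. It ran from 0.329 CPM through a median of 0.708 to 0.992 CPM in responders, and was at 0.275, 0.392, 0.506 and 0.318 CPM in non-responders 1 to 4 (log2 fold change -0.85, SE 0.38, edgeR adjusted p = 0.201). Responders 3 to 8 lay above all 4 non-responders, and responders 1 and 2 lay among them.

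Jun, on chromosome 4 from 95049034 to 95052222, encodes the partner that can also pair with itself. It ran from 11.7 CPM through a median of 15.5 to 32.1 CPM in responders, and was at 11.6, 5.30, 32.1 and 11.3 CPM in non-responders 1 to 4. Of the non-responders, 3 lay below every responder and non-responder 3 matched the highest. For Jun the group difference was -0.30 on the log2 scale (SE 0.42, edgeR adjusted p = 0.69), and it ranged from -0.96 without non-responder 3 to -0.01 without non-responder 2. Jun overlaps the antisense gene Junos, which was at 0.929 ± 0.480 CPM (responders) and 0.781 ± 0.379 CPM (non-responders).

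Junb, often an antagonist of Jun, lies on chromosome 8 from 84974484 to 84978718. It ran from 26.6 CPM through a median of 45.3 to 62.2 CPM in responders, and was at 26.4, 39.7, 20.4 and 36.0 CPM in non-responders 1 to 4. All 4 non-responders lay below the responder median (log2 fold change -0.52, SE 0.25, edgeR adjusted p = 0.218). Its exons overlap those of Prdx2, a peroxiredoxin gene on the opposite strand, which was at 81.8 ± 16 CPM (responders) and 99.4 ± 16.8 CPM (non-responders). Whether counting used strand is not given, so reads in the overlaps cannot be told apart.

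Atf3 was spread within the responders without a difference between groups beyond that spread. It lies on chromosome 1 from 191170296 to 191218039. Responders ran from 2.62 CPM through a median of 5.5 to 16.6 CPM, and non-responders 1 to 4 were at 4.54, 2.84, 7.78 and 4.77 CPM. Responders 1, 7 and 8, at 13.9, 16.6 and 11.3 CPM, lay above all other tumours. The log2 fold change was -0.69 (SE 0.51, edgeR adjusted p = 0.424).

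Over the 10 genes, 9 had a log2 fold change below 0, with a median of -0.80, beside 51.5% of the 18612 genes tested and a median of -0.02. None passed at an edgeR adjusted p under 0.05, as no gene of the whole table did (0.0%). At an unadjusted p under 0.05, 4 of the 10 (Egr3, Klf6, Egr1 and Fosb) were lower and 0 higher in non-responders, beside 16.1% and 7.73% of all genes. The groups overlapped for all 10, where 1.18% of all genes lay lower without overlap. Without responder 3, Egr3 alone of the 10 no longer overlapped. Over all genes tested, those without overlap in either direction rose from 396 to 847 when responder 3 was left out. Such a change was therefore not particular to Egr3. DESeq2 gave an adjusted p under 0.05 for Egr3 (adjusted p = 0.000498) and Klf6 (adjusted p = 0.0113), 2 of 10 beside 10.5% of its tested genes called lower. In limma-voom Klf6 passed (adjusted p = 0.0357) and Egr3 did not (adjusted p = 0.0545), 1 of 10 beside 4.71% called lower.

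The differences were smaller for several genes in fits with a covariate for sample composition. With the average other-cell score in the model, the log2 fold change was -2.88 for Egr3 (SE 1.30) and -0.68 for Egr2 (SE 0.87). For Klf6 it was -0.29 (SE 0.35) and for Junb -0.05 (SE 0.31). It was above 0, though by little beside the error, for Jun (0.37, SE 0.55) and Fos (0.81, SE 0.77). Egr1 (-0.71, SE 0.48), Nr4a1 (-0.62, SE 0.66), Fosb (-0.80, SE 0.53) and Atf3 (-0.83, SE 0.75) stayed nearer to their values without the score. When scores for fibroblasts and for macrophages took its place, Egr3 was at -3.35 (SE 1.22), Egr2 at -0.76 (SE 0.71) and Klf6 at -0.60 (SE 0.23). Junb was at -0.32 (SE 0.29) and Jun at 0.03 (SE 0.32). A further fit used 1 surrogate variable, which sva derives from all genes rather than from the other-cell lists. Its value was below 0 in non-responders 1 to 4 (-0.284, -0.317, -0.191 and -0.367) and in responders 2 and 3 (-0.224 and -0.241). In the other responders it was above 0 (0.106 to 0.485). The variable moved with the group, so this fit cannot fully separate it from the group difference. With the variable in the model, Egr3 was at -0.53 (SE 0.99), Egr2 at 0.06 (SE 0.81) and Klf6 at 0.00 (SE 0.23), whereas Egr1 was at -0.80 (SE 0.47). Nr4a1 (-0.30, SE 0.66), Fosb (-0.29, SE 0.48), Atf3 (-0.41, SE 0.75) and Junb (-0.01, SE 0.31) had smaller differences in that fit than without a covariate. Jun (0.28, SE 0.51) and Fos (0.26, SE 0.78) were above 0. No gene of the table passed in any of these 3 edgeR fits after adjustment. The 3 responders with the lowest other-cell means were responder 8 (2.41), responder 3 (2.62) and responder 2 (2.81). Responder 8 had 5.79 CPM of Egr3 and 75.6 CPM of Klf6, each above all 4 non-responders, whereas responders 3 and 2 had the lowest values of the responders for both genes. Because the group and the other-cell level move together, the part of other cells in these differences was not tested further.

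**Figure D3:**
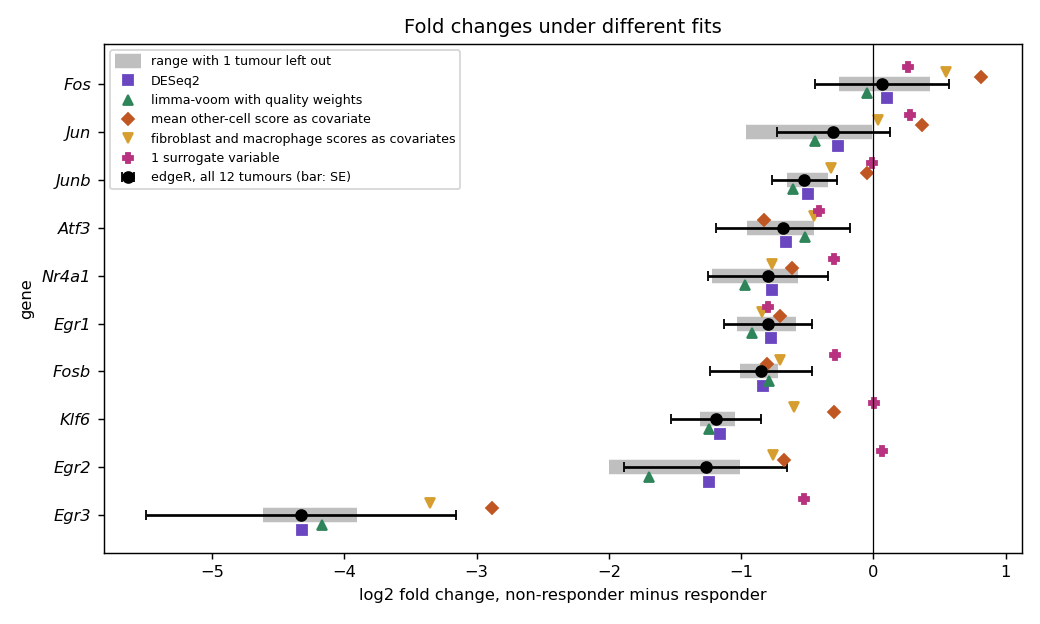
Log2 fold change (non-responder minus responder) of the 10 genes in the edgeR fit of all 12 tumours (black, bar SE), with the range when 1 tumour is left out (grey) and other fits in colour. Egr3 is at -4.33 in edgeR and at -0.53 with 1 surrogate variable, whereas Egr1 is at -0.80 in both. The surrogate variable moved with the group, so that fit cannot fully separate it from the group difference.

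Across tumours the highest correlations were between genes of the set Egr2, Egr3, Nr4a1 and Klf6. Klf6 with Nr4a1 ranked below several pairs that include other genes, and the pairs of the other genes ranged widely. The following Pearson correlations of log2 CPM describe 12 tumours that differ in depth and composition, and carry no test. Klf6 and Egr3 had r = 0.86, Nr4a1 and Egr2 0.84, Egr3 and Egr2 0.83, and Nr4a1 and Egr3 0.75. Within the 8 responders alone these were 0.72, 0.90, 0.85 and 0.81. Klf6 had 0.76 with Egr2 (0.72 within the responders), 0.70 with Junb (0.81) and 0.59 with Nr4a1 (0.47). Egr1 had 0.74 with Egr2, 0.70 with Nr4a1, 0.55 with Egr3 and 0.48 with Klf6, the last of which was 0.15 within the responders. Fosb had 0.69 with Egr3 and 0.60 with Klf6, but 0.01 with Egr1 and -0.33 with Fos. Jun had 0.54 with Klf6 and 0.42 with Fos (0.71 within the responders), and Egr3 and Fos had 0.03. Over all 45 pairs the median was 0.33 (range -0.33 to 0.86), and with each group centred on its mean it was 0.25.

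Single tumours ranked high for different genes. Responder 6 was the highest of the 12 for Junb, Egr2 and Nr4a1 and among the top 3 for 6 of the 10 genes. Responder 5 was highest for Egr1 and Egr3 and yet lowest for Atf3. Responder 1 was highest for Fos, responder 4 for Klf6, responder 7 for Atf3, responder 8 for Fosb and non-responder 3 for Jun. Non-responder 2 was the lowest of all for 4 genes and among the lowest 3 for 7. Responder 3 was lowest for Egr2 and Nr4a1 and among the lowest 3 for 5 genes.

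**Figure D4:**
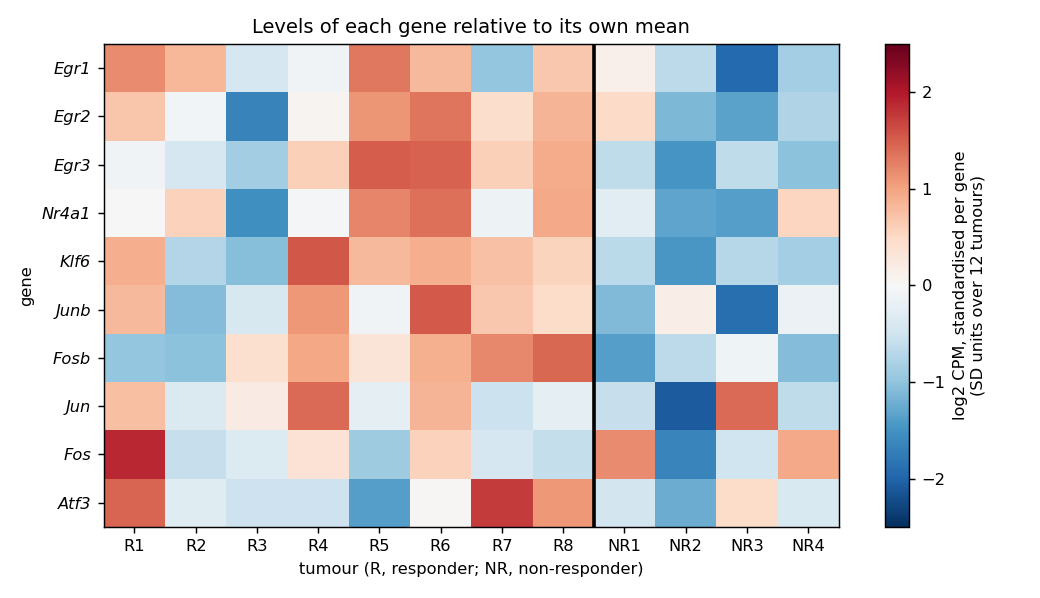
Log2 CPM of each gene, centred on its mean and divided by its SD over 12 tumours (colour, SD units), with responders 1 to 8 left of the line and non-responders 1 to 4 right of it. The upper 5 rows (Egr1, Egr2, Egr3, Nr4a1, Klf6) lie above their means together in responders 5, 6 and 8, and Fos peaks in responder 1.

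Other genes of the same response were given from lists that also hold the rest of each family. No gene of these lists passed in edgeR after adjustment, and the counts below are at an unadjusted p under 0.05, which 16.1% of all genes passed as lower and 7.73% as higher. Paired values give responders first. Of 11 tested AP-1 and bZIP genes, 6 were lower and 1 higher (median log2 fold change -0.46). Fosl2, a Fos-related gene, was at 25.5 ± 11.9 CPM (responders) and 10.5 ± 2.85 CPM (non-responders) (log2 fold change -1.28, edgeR adjusted p = 0.118). Jund, the Jun gene that most cells express at rest, averaged 25.5 and 13.8 CPM, and Batf, a partner of Jun in lymphocytes, 20.3 and 5.52 CPM. Mafk was the 1 higher gene (50.8 ± 15 and 73.9 ± 20.3 CPM). Batf2 (-2.90) and Batf3 (-1.78), the latter a factor of dendritic cells as well as T cells, averaged 1.23 and 2.61 CPM in responders. The summed level of the 10 dendritic-cell markers was 204 to 2923 CPM over responders and 160 to 409 CPM over non-responders, with 9 of 10 lower at an unadjusted p under 0.05 and none at 0. Batf3 is itself 1 of these 10 markers and of the 9, so the list is no separate measure beside it.

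Of 11 further EGR, NR4A and KLF genes, 5 were lower and 1 higher (median -0.99). Klf9, a glucocorticoid-responsive gene, was at 44.0 ± 45.5 and 7.76 ± 4.18 CPM, and Klf4 at 12.0 ± 9.94 and 3.28 ± 0.785 CPM. Nr4a3, a paralogue of Nr4a1, was at 6.02 ± 2.77 and 2.17 ± 1.56 CPM (log2 fold change -1.47, edgeR adjusted p = 0.143). The other 2 lower genes were Egr4, at 1.19 ± 1.43 and 0.0574 ± 0.0689 CPM, and Nab2, which encodes a corepressor that EGR factors induce and that restrains them, at 18.3 ± 8.11 and 9.22 ± 4.67 CPM. Klf13 was the 1 higher gene, at 126 ± 41.1 and 194 ± 60.8 CPM.

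Of 34 other immediate-early genes, 6 were lower and 1 higher (median -0.32). Zfp36l1, which encodes a protein that promotes decay of mRNA, was at 18.4 ± 8.17 CPM (responders) and 7.66 ± 2.76 CPM (non-responders). Ier3 was at 5.62 ± 2.63 and 2.39 ± 0.506 CPM. The remaining lower genes were Dusp2, Ppp1r15a and Rgs1. Btg2, an antiproliferative gene that p53 also induces, was the 1 higher gene, at 107 ± 72.8 and 325 ± 261 CPM (log2 fold change 1.61, edgeR adjusted p = 0.119). Cd69, a surface marker of recent T-cell activation, ranged from 1.94 to 33.0 CPM in responders and from 0.908 to 6.24 CPM in non-responders (log2 fold change -2.22, edgeR adjusted p = 0.119).

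Genes on the route to the immediate-early response were listed as feedback genes, factors, and kinases with adaptors. Of 11 ERK feedback genes, 2 were lower and 0 higher (median -0.80). Dusp5, a nuclear phosphatase of ERK, was at 28.1 ± 14.3 CPM (responders) and 10.6 ± 4.50 CPM (non-responders) (log2 fold change -1.41, edgeR adjusted p = 0.118). Etv4 was at 1.96 and 0.671 CPM and Spry2 at 4.59 and 1.95 CPM on average. Of 15 upstream factors 2 were lower and 0 higher (median -0.06), namely Mef2c (-1.57) and Crem (-0.83). Of 21 upstream kinases and adaptors, 14 had a log2 fold change above 0 at any p (median 0.10). At an unadjusted p under 0.05, 2 were lower, and the count of higher genes is not reported here. Lcp2, the adaptor SLP-76, was at 152 ± 62.5 and 87.3 ± 17.5 CPM, and Rasgrp1, which activates Ras below the T-cell receptor, at 161 ± 67.7 and 81.9 ± 52.0 CPM.

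Of 17 T-cell receptor signal targets, 6 were lower and 0 higher (median -0.51). Cd200 was at 14.0 ± 9.42 CPM (responders) and 3.83 ± 1.32 CPM (non-responders), and Tagap, a GTPase-activating protein gene of thymocytes, at 22.9 ± 18.1 and 3.14 ± 1.51 CPM. Icos, a costimulatory receptor gene, was at 147 ± 130 and 15.3 ± 11.2 CPM, with responders spread from 5.82 to 365 CPM. All 13 double-positive thymocyte genes had a higher mean in non-responders, 0 of them at an unadjusted p under 0.05, with a summed level of 558 to 5431 CPM over responders and 2117 to 7478 CPM over non-responders. Satb1 (log2 fold change 1.15), Cd24a (1.29) and Cd8a (1.32) had the lowest p of these.

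**Figure D5:**
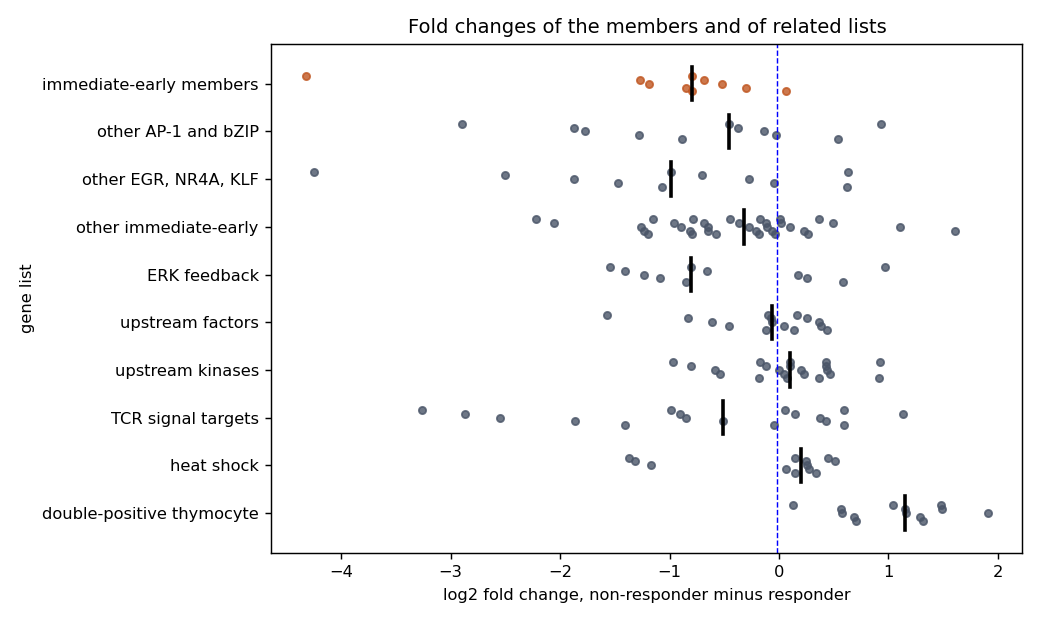
Log2 fold change (non-responder minus responder, edgeR) of each tested gene of the 10 immediate-early members (orange) and of related lists (grey), with the list median as a black bar and the median of all genes as a dashed line. The members' median is -0.80, and the upstream kinases (0.10) and factors (-0.06) lie near 0.

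Heat-shock genes, which tissue handling can also induce, were mixed. Of 12, 3 were lower and 0 higher at an unadjusted p under 0.05 (median 0.20). The 3 were the stress-inducible chaperone genes Hspa1b, at 6.67 ± 2.91 CPM (responders) and 2.67 ± 0.874 CPM (non-responders), Hspa1a, at 1.73 ± 0.938 and 0.766 ± 0.256 CPM, and Hspb1, at 6.94 ± 4.49 and 2.69 ± 1.59 CPM. Their edgeR adjusted p lay between 0.118 and 0.159. The summed level of the list was 3058 to 7341 CPM over responders and 4958 to 7374 CPM over non-responders. The labels say that tumours were frozen straight after the last scan; handling time as such is not given, and its part in the immediate-early levels was not tested.

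Markers of macrophages, endothelium and neutrophils, cells that also express AP-1, EGR and KLF6 genes, differed unequally between the groups. The 11 macrophage markers summed to 850 to 3398 CPM over responders and 1101 to 3397 CPM over non-responders, with 4 of 11 lower at an unadjusted p under 0.05. The 10 endothelial markers summed to 160 to 658 CPM and 104 to 163 CPM, with 8 of 10 lower. The 10 neutrophil markers summed to 29.6 to 729 CPM and 9.13 to 26.0 CPM, with 10 of 10 lower and Elane at 0 in all non-responders. No other marker of these 3 lists was at 0 throughout a group. Their part in the differences of the 10 genes was not tested beyond the fits with covariates.

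For likeness across the tumours, the 10 genes were standardised and averaged into 1 index per tumour, and 11445 other genes with a mean of at least 5 CPM were ranked by Pearson's r to it. Klf6 (r = 0.94), Egr3 (0.88) and Egr2 (0.86) followed the index most closely and Fos (0.41), Atf3 (0.45) and Jun (0.49) least. Each of the 10 is part of the index, which raises its r, so these values cannot be set beside those of other genes. The most similar other genes were Ccr1 (0.96), Srxn1 (0.94), Relb (0.94), Ankrd33b (0.93), F10 (0.93), Nfkb2 (0.93), Ccl22 (0.92) and Ttc39c (0.92), over 12 tumours. With both groups centred on their means, Srxn1 (0.92) and Ccr1 (0.91) were again among the first 8, joined by Zc3h6, Zc3h12d, Sbno2, Nfkbia, Eno2 and Alkbh3. When 1 tumour was left out, 2 to 7 of the first 8 genes stayed among the first 8, with the 2 left when non-responder 2 was out.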

How the data were processed

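RNA-seq counts of 12 tumours were used, 8 responders and 4 non-responders by the label for response. The labels call them independent biological samples and give no batch or pairing, so tumours were numbered within each group in accession order. The authors deposited 1 table of raw read counts, with Ensembl identifiers as rows, which was used as it stands. HTSeq and DESeq are named, without versions, in the submitters' processing notes. These notes name NCBIM37 and the labels' protocols mm10, so the build is not settled. For the aligner, the annotation release and the strand setting, "not given in the sources used here" applies. All 12 columns were mapped to samples by title.

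Symbols were matched by identifier to GENCODE M21 (32919 of 37991), whose GRCm38 positions and exon lengths were not used in counting. Genes were filtered with filterByExpr, which left 18612, scaled by TMM and tested with edgeR 4.0.16 in R 4.3.3 (quasi-likelihood F test, robust, group as the only term, two-sided, Benjamini-Hochberg over all genes tested, threshold 0.05). SE values were derived from the F statistic. CPM used the TMM-scaled totals, log2 CPM a prior count of 2, and RPKM the union of exons. Alternatives used DESeq2 1.42.0, limma 3.58.1 and sva 3.50.0.

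The named genes are the 10 members, the 3 genes of lowest p in each related list, and the 8 genes most like the members' index. Genes outside this rule are also named: Prdx2 and Junos for their overlap, the lineage markers Cd3e, Lck and Trbc1 as examples, Elane for its level of 0, and Mafk, Klf13, Btg2, Jund, Batf, Egr4, Nab2, Dusp2, Ppp1r15a and Rgs1, chosen after their values were seen. Cell lists were tested as counts only. The result of 1 gene that the rule names is not reported here. Members and lists were chosen with earlier results of these data known. Of 275 listed entries, 274 matched a row. The edgeR step was tested on simulated counts, with 50 changed genes at each size of change. At an adjusted p under 0.05 it recovered 12% of 2-fold, 64% of 4-fold, 76% of 8-fold and 92% of 16-fold changes. It called 6 of 17979 unchanged genes. Most 2-fold changes were thus missed, so a gene that did not pass can still differ.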

Additional observations from a re-analysis of the deposited data

Results flagged for a closer look

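Egr2 in responder 3 stood apart from the other 7 responders. It was at 1.01 CPM, and the gap to the next responder on the log2 CPM scale took a share of 0.536 of the whole range of the group, more than Dixon's 95% value for 8 samples. This was the sole such value in the 20 groups of values examined (10 genes in 2 groups), and about 1 group in 20 is marked by chance.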

How the results depend on the processing

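All 10 genes were refitted under 11 alternatives and with each of 12 tumours left out, except that Fosb had too low a level for the filter of 1 CPM in 4 libraries. In 213 of 229 refits a gene kept its direction and its side of the threshold. In 3 it passed the threshold (Egr3 in DESeq2, Klf6 in DESeq2 and limma-voom), and in 13 the sign turned. Fos turned to -0.015 under upper-quartile scaling, to -0.0493 in limma-voom, and within -0.26 to 0.43 with 1 tumour left out. Jun turned to 0.37 with the mean other-cell score, to 0.0323 with the fibroblast and macrophage scores and to 0.28 with 1 surrogate variable, with which Egr2 (0.0642) and Klf6 (0.00283) turned too. The cause was not tested. DESeq2 called 2462 genes of the whole table and limma-voom 1723, where edgeR called 0 (0 to 5 with 1 tumour left out, 5 without responder 3, 3 without non-responder 1 and 1 without non-responder 3). Genes at an unadjusted p under 0.05 were 4428 in edgeR, 1203 with the mean other-cell score, 2550 with the fibroblast and macrophage scores, 1199 with 1 surrogate variable and 3224 to 5534 with 1 tumour left out. Of the 10 genes, 4 were at that p in the main edgeR fit, 1 (Egr3), 2 (Egr3 and Klf6) and 0 in those 3 fits, and 2 to 6 with 1 tumour left out, with 2 each (Egr3 and Klf6) without responder 5 or 6. Genes without overlap were 396, and 404 to 1018 with 1 tumour left out; of the 10, 0 to 1. No paired analysis was possible because the labels give no shared replicate numbers. Depth limits Fosb (6 to 25 counts) and Egr3 in non-responders (1 to 9 counts).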
